A study of Mus musculus with 12 samples.

Results

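RNA-seq was performed on donor OTII cells, which are CD4+ T cells carrying a transgenic T-cell receptor for a peptide of ovalbumin (OVA), after they were primed in WT or Il6-/- recipients. The difference between Il6-/- and WT recipients was taken on Day 3 and on Day 5 and averaged, with equal weight for both days, so that genes shifted in one direction on both days stand out. The comparison used all 12 libraries of the series, 3 in each of 4 groups: WT Day 3, Il6-/- Day 3, WT Day 5 and Il6-/- Day 5. In every group the recipients were sensitized intranasally with a house dust mite (HDM) extract of high endotoxin content, together with OVA, and OTII cells were sorted from the mediastinal lymph nodes as B220- CD4+ CD44+ cells bearing the CD45.1 donor marker. The sample labels give the tissue as blood, whereas the design text and the study's methods give the lymph nodes. According to the design text, day numbers in the study's article begin at 0. The donor cells had the same genotype in all groups, so the mutation lay in the host, and Il6 itself, with 0 to 5 reads per library, does not check the labels. The ages of the mice are not given, and nothing says whether replicates came from separate mice or pools, so p-values measure the spread between these samples, which may be technical. In bulk RNA a lower level cannot be told apart from fewer cells that express the gene.

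IL-6 binds its receptor and the shared chain gp130, which activates JAK kinases and then the transcription factor STAT3. In T cells STAT3 drives the Th17 program and contributes to the Tfh program, and it induces Socs3, an inhibitor that dampens cytokine receptor signaling. IL-2 acts through another receptor and through STAT5, which induces Cish, a second inhibitor of the SOCS family, and the IL-2 receptor chain Il2ra. Strong IL-2 signaling favors Th1, Th2 and regulatory T cells and opposes Tfh and Th17 cells. STAT proteins bind DNA at palindromes of the form TTCNNNGAA.

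Socs3 and Cish are the family members that the averaged comparison set apart, Socs3 lower and Cish higher in Il6-/- recipients, and their promoter windows are shown for that reason. The windows run from 250 bases before to 50 bases after the transcription start in the RefSeq annotation of GRCm38.p6, are written 5′ to 3′ along the gene, and carry each match to TTCNNNGAA in capitals. The Socs3 window lies on the minus strand at chr11:117969317-117969616 and the Cish window on the plus strand at chr9:107296409-107296708.
Socs3: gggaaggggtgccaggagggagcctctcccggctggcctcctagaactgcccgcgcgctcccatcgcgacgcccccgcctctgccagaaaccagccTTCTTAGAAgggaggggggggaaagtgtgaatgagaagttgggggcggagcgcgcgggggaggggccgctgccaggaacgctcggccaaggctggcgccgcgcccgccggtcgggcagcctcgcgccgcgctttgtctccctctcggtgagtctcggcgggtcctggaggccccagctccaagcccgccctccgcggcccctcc
Cish: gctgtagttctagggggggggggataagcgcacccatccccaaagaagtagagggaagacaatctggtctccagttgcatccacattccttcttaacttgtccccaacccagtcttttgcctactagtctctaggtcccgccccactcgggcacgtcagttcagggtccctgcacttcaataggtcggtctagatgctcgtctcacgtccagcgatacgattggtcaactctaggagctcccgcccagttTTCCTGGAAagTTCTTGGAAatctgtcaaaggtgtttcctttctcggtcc
Socs3 held 1 match and Cish held 2, so the same letters stand near the start of a gene that fell and of one that rose. Irf8 and Tnfrsf25, a transcription factor that rose and a TNF receptor that fell, are shown as a further pair with a match. The Irf8 window lies at chr8:120736108-120736407 and the Tnfrsf25 window at chr4:152116093-152116392, both on the plus strand, and a second window of each gene held no match.
Irf8: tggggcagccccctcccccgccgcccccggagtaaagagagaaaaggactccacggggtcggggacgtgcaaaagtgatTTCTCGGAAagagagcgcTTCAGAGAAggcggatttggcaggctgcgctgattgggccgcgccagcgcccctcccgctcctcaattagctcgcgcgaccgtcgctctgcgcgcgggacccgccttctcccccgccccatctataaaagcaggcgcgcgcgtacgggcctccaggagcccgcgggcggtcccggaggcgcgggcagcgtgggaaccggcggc
Tnfrsf25: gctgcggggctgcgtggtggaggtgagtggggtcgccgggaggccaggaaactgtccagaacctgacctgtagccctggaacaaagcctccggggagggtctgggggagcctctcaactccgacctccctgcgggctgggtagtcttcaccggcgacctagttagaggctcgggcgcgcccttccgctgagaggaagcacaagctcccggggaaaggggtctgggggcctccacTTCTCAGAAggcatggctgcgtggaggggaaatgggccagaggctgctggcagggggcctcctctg
The pattern of the motif reads the same on both strands, so 1 search covers both. Of 32851 RefSeq windows, 2726 (8.3%) held a match, and of the 10397 tested genes with a window, 871 (8.38%) did. Of the genes called on average, defined in the next paragraph, 12 of 78 higher genes with a window (15.4%) and 15 of 103 lower genes with a window (14.6%) held one. Of the genes that passed on each day separately, 6 of 43 higher genes with a window (14%) and 7 of 73 lower genes (9.59%) did. A match describes letters in the window and not binding.

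Of 40840 genes listed, 13570 had enough counts to be tested. A gene was called on average when its averaged difference reached 2-fold in size at an FDR (Benjamini-Hochberg adjusted p, over all genes tested) below 0.05. By this rule 107 genes (0.789% of those tested) were higher and 128 (0.943%) were lower in Il6-/- recipients. At an FDR under 0.05 with no fold limit, 1034 genes (7.62%) were higher and 968 (7.13%) were lower, and the median averaged log2 fold change of all genes tested was 0.00824. Averaging narrowed the error: the median SE was 0.11 on the log2 scale for the averaged difference and 0.156 for each day. As a result 453 genes passed the averaged FDR that passed on neither day, and 48 of the 235 called genes passed on neither day.

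Most called genes had the same sign on Day 3 and Day 5, which does not mean that they passed on both. The sign was the same on both days for 104 of 107 higher genes and 125 of 128 lower genes, against 57.1% of all genes tested, a share that the averaging itself raises. The difference was larger on Day 3 for 178 called genes and on Day 5 for 57. Of the 235 called genes, 126 passed an FDR under 0.05 on Day 3 only, 14 on Day 5 only and 47 on both days. Genes that passed an FDR under 0.05 on each day separately and in the same direction, with no fold limit, numbered 59 higher (0.435%) and 84 lower (0.619%), and 20 of the higher and 27 of the lower were also called on average. Of the 143 both-day genes, 142 had libraries that did not overlap between the genotypes on either day. This held for 3.02% of all genes tested in the higher direction and 2.68% in the lower. The choice by each day's FDR used the same libraries and favors such gaps, so the contrast is no further evidence.

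The both-day counts moved with single libraries. Each day's difference was taken from 6 of them, while the estimate of the spread came from all 12. Of the 143 genes, 38 stayed past both days' thresholds whichever library was left out, whereas the averaged FDR of all 143 stayed under 0.05 in each of those 12 fits. The 59 higher genes became 35 without WT Day 3 replicate 2, 39 without WT Day 3 replicate 3, 24 and 25 without WT Day 5 replicates 1 and 2, 37 without Il6-/- Day 3 replicate 2, and 139, 31 and 37 without Il6-/- Day 5 replicates 1, 2 and 3. The 84 lower genes became 53 without WT Day 3 replicate 2, 44 and 41 without WT Day 5 replicates 1 and 2, 55 without Il6-/- Day 3 replicate 2, and 43 and 51 without Il6-/- Day 5 replicates 2 and 3. With the replicate number of each day as a block, the both-day counts were 227 higher and 189 lower, and all 143 genes were among them. Over all genes, same-numbered WT and Il6-/- libraries deviated together on Day 5 but hardly on Day 3. Trbc1, a T-cell receptor gene, followed the replicate number on both days. The counts without the block are used here, so that what same-numbered libraries share is left out of the tests. The averaged test is used below, and a gene named by its average need not have passed on both days. Of 103 genes examined by name, 18 passed on both days only with the block, and 0 the other way.

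**Figure D1:**
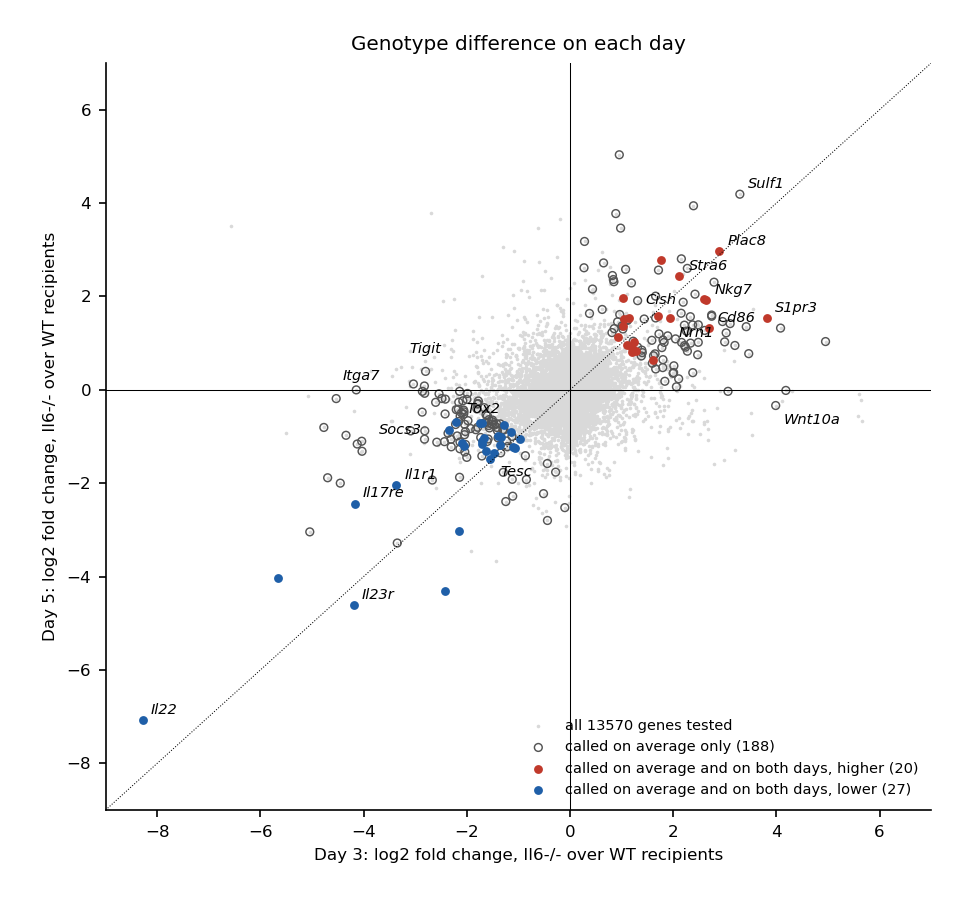
Log2 fold change of Il6-/- over WT recipients on Day 3 (x axis) and Day 5 (y axis) for each of 13570 genes tested, with called genes ringed or coloured and the dotted line marking equal change. Coloured points, the 20 higher and 27 lower genes that passed on average and on both days, share one sign on both days by construction, and Wnt10a, Itga7 and Tigit lie near or across the horizontal axis.

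Of 11 tested genes of the Th17 program, 5 were lower on both days, against 0.619% of all genes tested, and their averaged differences were large. The list was chosen with earlier results of these data known, so its counts describe the members and are no independent test. Il1r1, the signaling receptor for IL-1, stood at 40.1, 43.7 and 49.3 CPM (read counts scaled to a common library size) in WT and 5.49, 3.45 and 3.93 CPM in Il6-/- recipients on Day 3, and at 12.4, 26.1 and 21.2 against 1.43, 6.04 and 7.03 CPM on Day 5. The groups did not overlap on either day, and Il1r1 fell by 2.71 ± 0.27 on the averaged log2 scale (SE, edgeR FDR 2.01e-05). In the GENCODE annotation of GRCm39, Il1r1 lies on chromosome 1 from 40264174 to 40356417.

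Receptors and cytokines of the same program were lower at smaller counts. Il17re, a receptor chain for IL-17C, ranged from 1.14 to 2.82 CPM in the 6 WT libraries and from 0.053 to 0.293 CPM in the 6 Il6-/- libraries, with an averaged log2 fold change of -3.31 ± 0.36 (SE, edgeR FDR 5.88e-05). Il23r, the receptor for IL-23, stood at 3.55, 2.87 and 1.36 CPM in WT and 0.264, 0.053 and 0.0948 CPM in Il6-/- recipients on Day 3, and at 0.204, 0.623 and 0.94 against 0, 0 and 0.0521 CPM on Day 5. No Il6-/- library reached a WT library of its day, but the lowest WT library of Day 5 held 4 reads and the Il6-/- libraries of that day at most 1. Il22, a cytokine that acts on epithelium, was at 1.56, 2.03 and 2.28 CPM in WT on Day 3 and 1.73, 0.571 and 0.235 CPM on Day 5, and had no read in any of the 6 Il6-/- libraries. Taking 3 counts per library as the limit for the groups at 0, it was at least 12.8-fold lower on Day 3 and at least 5.17-fold lower on Day 5 (averaged edgeR FDR 0.00054). Its near-identical copy Iltifb, chosen after its values were seen, was lower as well, at -2.3 ± 0.45 (SE, edgeR FDR 0.00381), with a Day 5 FDR of 0.139, and reads may be split between the copies.

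Of 14 Th17 genes listed, 11 were tested, of which 6 were called lower and 0 higher, against 0.943% and 0.789% of all genes tested. At an FDR under 0.05 with no fold limit, 7 were lower and 3 higher, with a median averaged log2 fold change of -2.59 against 0.00824 for all genes, and the same median when Il22 was set to its bound. The list thus held genes of both signs. The 3 higher genes, named here after their values were seen, were the chemokine receptor Ccr6 at 0.56, the aryl hydrocarbon receptor gene Ahr at 0.63 and the transcription factor Irf4 at 0.29. None of the 3 passed on both days. The AP-1 factor Batf, named in the same way, was lower by 0.23. The list of IL-6- and STAT3-induced genes shares members with the Th17 list, among them Il1r1, Il23r and Il22. Of its 18 tested genes, 8 were called lower, 11 were lower and 2 higher by FDR, and the median was -0.562. The average summarized Day 3 more than Day 5, with medians of -1.01 and -0.151 on these days. The both-day members of that list also included Socs3 and Bcl3, an atypical IκB protein, which was named after its values were seen and fell by 1.15 ± 0.17 (SE, edgeR FDR 0.000707).

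Socs3 was at 13.3, 15.8 and 19.9 CPM in WT and 3.43, 2.6 and 3.6 CPM in Il6-/- recipients on Day 3, and at 22.1, 25.1 and 20.3 against 14.1, 10.3 and 12.9 CPM on Day 5. Its WT and Il6-/- libraries did not overlap on either day, but the gap was smaller on Day 5. The averaged log2 fold change was -1.60 ± 0.13 (SE, edgeR FDR 4.92e-06), made up of -2.34 on Day 3 and -0.86 on Day 5, which differed (interaction FDR 0.00807). Its Day 5 FDR of 0.0122 became 0.0632 without WT Day 5 replicate 2 and 0.0683 without Il6-/- Day 5 replicate 2. Socs1, another feedback inhibitor, had values of -0.30 on Day 3 and -1.03 on Day 5 and was lower on average by FDR, at -0.67 ± 0.11 (SE, edgeR FDR 0.0015). Il6ra, the ligand-binding chain of the IL-6 receptor on the donor cells, ranged from 86.6 to 99.3 CPM in WT and from 60.3 to 68.8 CPM in Il6-/- recipients on Day 3, and from 168 to 185 against 116 to 140 CPM on Day 5. It fell by 0.473 ± 0.064 on average (SE, edgeR FDR 0.000306), with near-equal values on both days.

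Other leading genes among the lower ones have no single shared role. Tesc, a calcium-binding protein that regulates a sodium-proton exchanger, ranged from 54.1 to 71.1 CPM in WT and from 18.4 to 25.7 CPM in Il6-/- recipients on Day 3, and from 108 to 160 against 47.6 to 53.6 CPM on Day 5. Its difference was nearly the same on both days, -1.54 and -1.49, with an averaged log2 fold change of -1.51 ± 0.11 (SE, edgeR FDR 2.42e-06). Tox2, an HMG-box factor of the Tfh program, stood at 127, 117 and 106 CPM in WT and 24.1, 24.7 and 27.3 CPM in Il6-/- recipients on Day 3, and at 81.2, 133 and 90.1 against 47.3, 67.8 and 74.5 CPM on Day 5. The libraries did not overlap on either day, but the Day 5 gap was narrow, and the difference changed from -2.20 to -0.68 between the days (interaction FDR 0.00532).

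Tnfrsf25, the death-domain receptor for TL1A, ranged from 50.9 to 58.2 CPM in WT and from 13.8 to 21.2 CPM in Il6-/- recipients on Day 3, and from 38.2 to 52.4 against 25.3 to 28.9 CPM on Day 5, an averaged log2 fold change of -1.22 ± 0.11 (SE, edgeR FDR 6.5e-06). Its difference went from -1.74 on Day 3 to -0.713 on Day 5 (interaction FDR 0.015). Kcna2, a voltage-gated potassium channel, differed by -1.35 ± 0.13 (SE, edgeR FDR 1.37e-05), although its exons overlap an antisense gene and counting took no account of strand. Matk, a kinase that acts on Src-family kinases, was 4.72 to 6.03 CPM in WT on Day 3 and 46.0 to 70.0 CPM on Day 5, and differed by -0.98 and -1.05 on these days, so that its difference held across a large change in level. The nucleoside transporter Slc28a2b (-1.47), the orphan receptor Gpr146 (-1.63), the actin regulator Phactr2 (-1.03), the ubiquitin ligase Rnf144a (-1.02) and the interferon-induced chaperone Rtp4 (-1.21) also stood among the 14 lower genes with the smallest averaged p, with edgeR FDRs between 6.95e-05 and 0.000182.

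**Figure D2:**
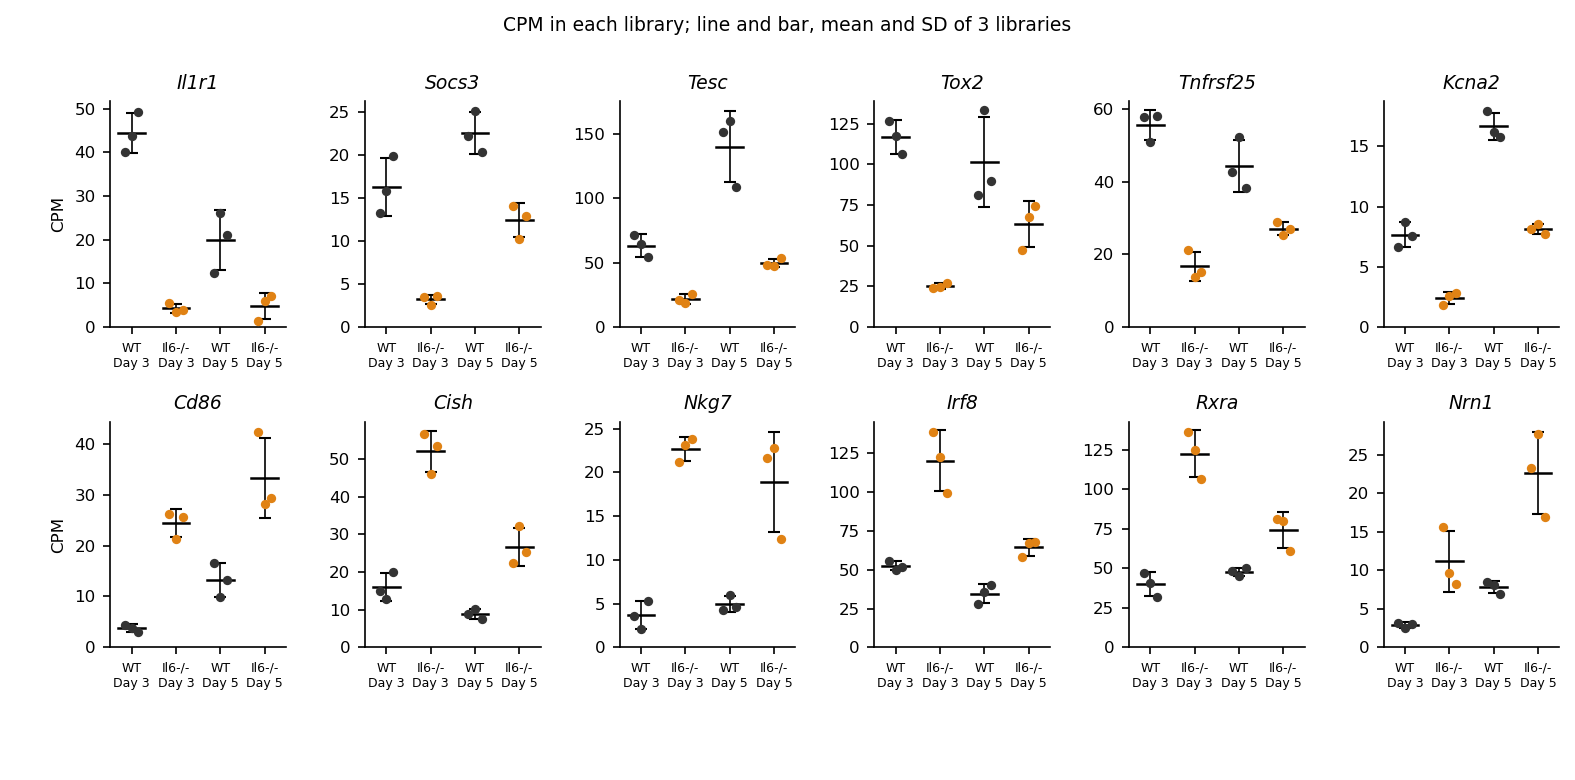
CPM (y axis, from 0, scaled for each gene) of 6 lower genes (upper row) and 6 higher genes (lower row) in each of the 12 libraries, with the mean and SD of the 3 libraries of each group. Il6-/- libraries (orange) and WT libraries (dark) of the same day do not overlap for any of the 12 genes, as the rule that chose them required. The gaps of Socs3, Tox2, Tnfrsf25, Cd86 and Rxra are narrower on Day 5 in log2 terms (interaction FDR under 0.05). Those of Il1r1 and Kcna2 are narrower on Day 5 without passing that threshold.

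Among the higher genes, Cd86, a B7 ligand for CD28 and CTLA-4 that is best known on antigen-presenting cells, had the smallest p. It was at 4.45, 3.86 and 2.93 CPM in WT and 26.3, 21.2 and 25.5 CPM in Il6-/- recipients on Day 3, and at 16.6, 9.97 and 13.2 against 42.3, 28.1 and 29.4 CPM on Day 5. Each Il6-/- library exceeded each WT library of its day, and the averaged log2 fold change was 2.01 ± 0.15 (SE, edgeR FDR 2.42e-06). Cd83, a surface protein induced on activated lymphocytes and dendritic cells, rose by 1.00 ± 0.11 (SE, edgeR FDR 7.49e-05), from 98.9 to 150 CPM in WT to 245 to 306 CPM in Il6-/- recipients on Day 3 and from 126 to 192 to 237 to 288 CPM on Day 5. Irf8, an interferon regulatory factor of lymphoid and myeloid cells, rose by 1.04 ± 0.09 (SE, edgeR FDR 8.77e-06), from 49.8 to 55.7 CPM in WT to 99.2 to 138 CPM in Il6-/- recipients on Day 3 and from 28 to 40.1 to 58.2 to 67.9 CPM on Day 5. In GRCm39, Cd86 lies on chromosome 16 from 36424044 to 36486443 on the minus strand, with no exon shared with another counted gene.

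Because these 3 genes are also expressed by B cells and other antigen-presenting cells, markers of those cells were measured in every library. Of 14 B-cell genes, Ighm made up 97.5% of the summed CPM, which ranged from 603 to 686 in WT and 555 to 638 in Il6-/- recipients on Day 3, and from 438 to 473 against 487 to 572 on Day 5. Cd22, a sialic-acid receptor of B cells, was the 1 marker called, at 2.12 ± 0.30 (SE, edgeR FDR 0.00043), with group means of 0.778 and 6.61 CPM on Day 3 and 1.96 and 4.59 CPM on Day 5. The other 12 genes summed to 6.16 to 10.1 CPM in WT and 8.33 to 11.2 CPM in Il6-/- recipients on Day 3, and to 9.62 to 13.1 against 12.7 to 13.8 CPM on Day 5. Ms4a1, the B-cell surface protein CD20, was at most 0.312 CPM in any library.

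Myeloid and dendritic-cell genes, 20 in all, summed to 113 to 160 CPM in WT and 110 to 136 CPM in Il6-/- recipients on Day 3 and to 134 to 271 against 144 to 182 CPM on Day 5, with Clec9a at 0 throughout and 0 of 16 tested genes past an averaged FDR of 0.05. MHC class II genes summed to 75.7 to 111 against 114 to 130 CPM on Day 3 and to 351 to 360 against 311 to 358 CPM on Day 5, and among them Cd74 rose by 0.77 ± 0.11 (SE, edgeR FDR 0.00057), with 1.29 on Day 3 and 0.25 on Day 5. The part of other cells in the higher genes was not tested. The gated cell type was present in all libraries, as genes of conventional CD4+ T cells summed to 8450 to 15800 CPM over all libraries, and 5 of 10 were lower and 0 higher by averaged FDR, with 0 called. Genes of NK and CD8+ T cells summed to 63.6 to 75.6 against 84.5 to 115 CPM on Day 3 and to 93.1 to 112 against 88.9 to 104 CPM on Day 5, with Klra4 and Klra8 at 0 and 1 of 7 tested genes called higher. Lung epithelial genes stayed at 1.8 to 43.9 CPM, red-cell and stromal genes, of which Pecam1 made up 99%, at 84 to 154 CPM, and sex-linked genes at 179 to 316 CPM, with 0 members called in each.

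Cish was at 14.9, 12.9 and 20.1 CPM in WT and 56.6, 46.1 and 53.5 CPM in Il6-/- recipients on Day 3, and at 8.86, 10.3 and 7.66 against 22.4, 32.2 and 25.5 CPM on Day 5. Its difference was near-equal on both days, 1.71 and 1.58, and averaged 1.64 ± 0.12 (SE, edgeR FDR 2.42e-06). Il2ra ranged from 19.1 to 37.2 CPM in WT and from 62.5 to 96.7 CPM in Il6-/- recipients on Day 3, and from 2.54 to 3.67 against 3.38 to 7.79 CPM on Day 5, where the lowest Il6-/- library lay within the WT range. It rose by 1.32 ± 0.21 on average (SE, edgeR FDR 0.000908), with a Day 5 FDR of 0.084. Il2rb, the signaling chain shared with the IL-15 receptor, rose by 0.20 ± 0.05 (SE, edgeR FDR 0.0166), from 0.12 on Day 3 and 0.28 on Day 5. With the replicate block Il2ra passed on Day 5 as well, with an FDR of 0.00894.

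Of 29 tested genes on the list of IL-2- and STAT5-induced genes, 3 were called higher and 0 lower, and 14 were higher and 1 lower by FDR, the lower one being Socs1. The median averaged log2 fold change was 0.272, and 27 of 29 values were positive. By day the medians were 0.484 on Day 3 and 0.195 on Day 5. Lta, which encodes lymphotoxin alpha, rose by 0.72 ± 0.07 (SE, edgeR FDR 1.87e-05) and the survival factor Bcl2l1 by 0.83 ± 0.09 (SE, edgeR FDR 7.03e-05). The list of genes that IL-2 represses shares members with the IL-6- and STAT3-induced list. Of its 12 genes, 9 were lower and 1 higher by FDR, with a median of -0.528. The day medians were -0.677 on Day 3 and -0.119 on Day 5, and 5 of the 12 had an interaction FDR under 0.05. Among the 12 genes, Il6ra differed by a like amount on both days. S1pr1, which guides exit from the lymph node, and Cxcr5, the B-cell follicle receptor, averaged -0.62 and -0.67 but stood at -0.16 and 0.10 on Day 5.

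Nkg7, a membrane protein of cytotoxic granules, stood at 3.55, 2.13 and 5.32 CPM in WT and 21.2, 23.2 and 23.8 CPM in Il6-/- recipients on Day 3, and at 4.33, 6.03 and 4.61 against 21.6, 22.8 and 12.4 CPM on Day 5. The groups were well apart on both days, and Nkg7 rose by 2.28 ± 0.20 on average (SE, edgeR FDR 6.08e-06). It lies on chromosome 7 of GRCm39 from 43086497 to 43087678. The cytotoxic and NK receptor list as a whole did not move one way, with 2 of 14 tested genes called higher and 2 lower and a median of 0.313. Its leading members differed in pattern: Ctsw, a cathepsin, rose on average by 1.19 ± 0.22 (SE, edgeR FDR 0.0031), from 2.01 on Day 3 and 0.37 on Day 5 (Day 5 FDR 0.569), Klrc1, an NKG2 receptor, had Il6-/- libraries with at most 3 counts on both days, and Klrb1c went from 2.11 on Day 3 to -0.60 on Day 5.

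Rxra, the retinoid X receptor partner of many nuclear receptors, ranged from 31.8 to 47.0 CPM in WT and from 107 to 136 CPM in Il6-/- recipients on Day 3, and from 45.1 to 50.3 against 61.1 to 81.4 CPM on Day 5. It rose by 1.12 ± 0.10 (SE, edgeR FDR 7.38e-06) and was the 1 member past an FDR of 0.05 among 14 tested nuclear receptors. Stra6, which encodes a receptor for retinol-binding protein, rose by 2.27 ± 0.30 (SE, edgeR FDR 0.000263). It ranged from 2.22 to 4.06 CPM in WT and from 10.2 to 18.6 CPM in Il6-/- recipients on Day 3. On Day 5 it ranged from 0.104 to 0.423 against 0.781 to 1.76 CPM. The fitted differences were 2.11 ± 0.34 on Day 3 and 2.43 ± 0.50 on Day 5 (SE). The WT libraries of Day 5 held only 4, 2 and 9 reads, so the Day 5 value is less certain.

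The remaining genes among the 14 higher ones with the smallest averaged p span adhesion, lipid signaling and metabolism. Plac8, a cysteine-rich protein of activated leukocytes, ranged from 2.65 to 5.43 CPM in WT and from 19.6 to 38.9 CPM in Il6-/- recipients on Day 3 and from 0.376 to 1.35 against 2.24 to 10.6 CPM on Day 5, an averaged log2 fold change of 2.92 ± 0.37 (SE, edgeR FDR 0.000179). S1pr3, a receptor for sphingosine-1-phosphate, averaged 2.68 but went from 3.82 on Day 3 to 1.54 on Day 5 (interaction FDR 0.0424). Nrn1, which encodes neuritin, rose by 1.74 ± 0.17 (SE, edgeR FDR 2.01e-05). Car2, a carbonic anhydrase, Tasl, an adaptor for IRF5, Mir155hg, the host transcript of miR-155, and Nrp1, a semaphorin coreceptor of regulatory T cells, rose by 2.26, 1.34, 1.05 and 1.03. Nrn1, S1pr3, Stra6 and Nrp1, and among the lower genes Tnfrsf25 and Matk, share exonic positions with counted genes on the opposite strand, whose reads cannot be told apart from theirs, and Mir155hg holds the Mir155 gene. The same holds, among genes named elsewhere, for Il22, Cxcr5, Ctsw, Irf7, Jak3, Slfn5, Tnfrsf26, Wnt10a, Gnl3, Nop16, Pcna, Hspd1 and Hsp90ab1, and the exons of Nav2 overlap a counted gene on its own strand.

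Of the 28 leading genes, all kept an averaged FDR under 0.05 in each of 20 alternatives, 12 of them leaving out 1 library, and 22 also kept the 2-fold limit throughout. Cd83, Matk, Nrp1, Irf8, Phactr2 and Rnf144a, whose averaged change was just over 2-fold, fell under it in at least 1. The FDR on each of both days was firmer for some than for others: 13 genes kept it whichever library was left out, and 13 lost it without WT Day 5 replicate 2, 9 without WT Day 5 replicate 1, 9 without Il6-/- Day 5 replicate 2 and 7 without Il6-/- Day 5 replicate 3. Cd86, Cish, Nkg7, Irf8, Nrn1, Tesc, Il1r1, Kcna2, Phactr2 and Slc28a2b were among the 11 that kept it in all 20 alternatives. The least firm were S1pr3 and Rtp4, which lost it in 8 of the 12 omissions each. Their Day 5 FDRs were then 0.0537 to 0.159 and 0.0509 to 0.192. Tox2 lost it in 7, with Day 5 FDRs of 0.0504 to 0.15. With the replicate block all 28 passed on both days, and the average of Matk, at -0.996, was just under 2-fold.

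**Figure D3:**
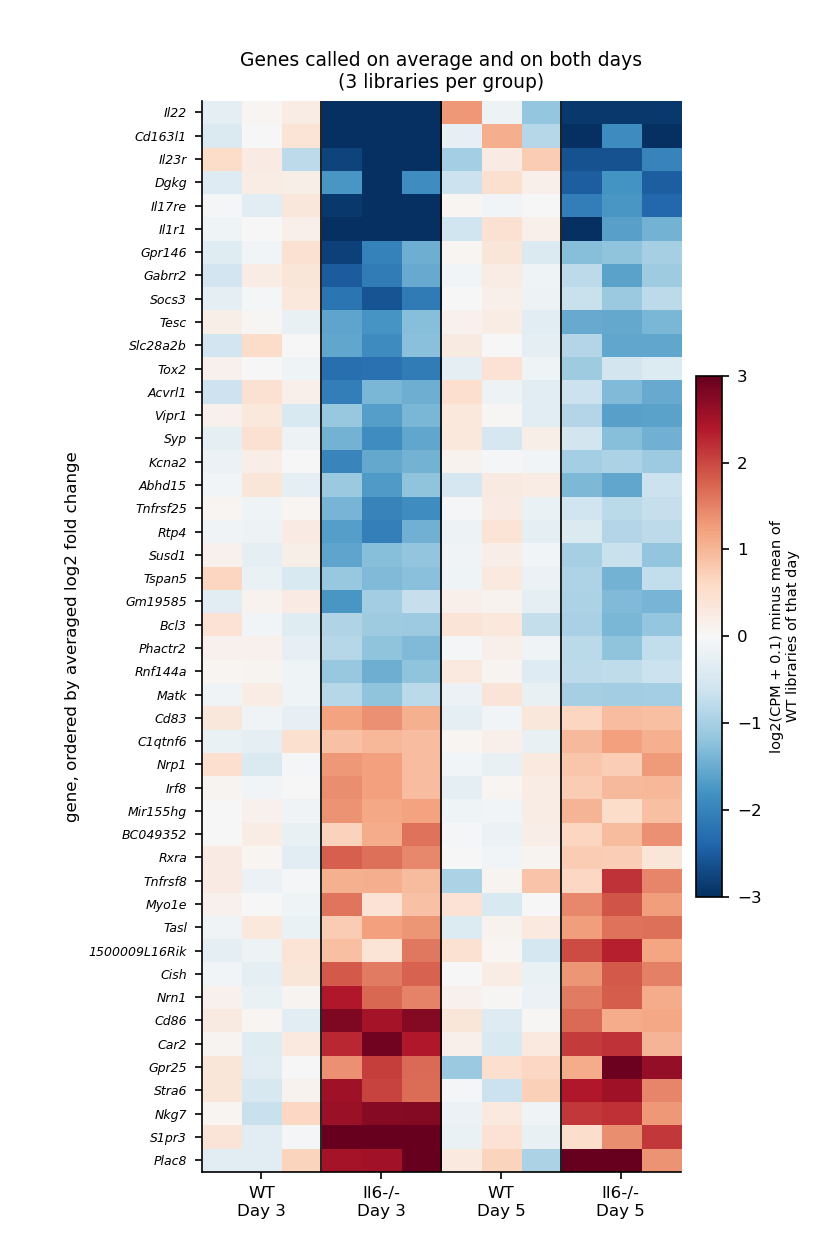
Each row is 1 of 46 of the 47 genes called on average and on both days, each column 1 library, and colour gives log2(CPM + 0.1) minus the mean of the WT libraries of that day, cut at 3 in either direction. The WT columns show the spread of the controls around 0, and the Il6-/- columns of both days share the sign of the average, 26 rows lower and 20 higher, as the choice of rows fixes.

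Genes of the other helper fates were described by lists. Counts by FDR for any list stand beside 7.62% higher and 7.13% lower of all genes tested. Of 14 tested Th1 genes, 3 were called higher and 1 lower, 6 were higher and 1 lower by FDR, and the median was 0.451. Tbx21, which encodes T-bet, stood at 2.65, 2.32 and 2.71 CPM in WT and 12.1, 16.3 and 14.7 CPM in Il6-/- recipients on Day 3, and at 3.51, 3.27 and 1.32 against 4.55, 6.5 and 5.31 CPM on Day 5. The groups did not overlap on either day, and Tbx21 rose by 1.75 ± 0.21 on average (SE, edgeR FDR 9.69e-05), although its Day 5 FDR was 0.0615, which became 0.0215 with the replicate block. The T-bet target Cxcr3 rose by 0.99 ± 0.19 (SE, edgeR FDR 0.0035), from 1.17 on Day 3 and 0.80 on Day 5. Its Day 5 FDR of 0.107 became 0.0257 with the block. Ifng, at 0 to 6.93 CPM, averaged 1.57 ± 0.41 (SE, edgeR FDR 0.0199) with an FDR above 0.05 on each day, one of the 48 genes called through the average alone.

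Of 10 tested Th2 genes, 1 was called higher, 3 were higher and 1 lower by FDR, and 9 had positive values, with a median of 0.292. Il17rb, the receptor for IL-25, whose exons overlap those of Actr8 and Chdh on the opposite strand, ranged from 39.1 to 41.6 CPM in WT and from 50.3 to 54.2 CPM in Il6-/- recipients on Day 3, and from 40.7 to 47.7 against 87.9 to 109 CPM on Day 5. The groups did not overlap on either day and the difference was larger on Day 5 (interaction FDR 0.00504), the opposite order to most leading genes, with an average of 0.78 ± 0.07 (SE, edgeR FDR 6.5e-06). Gata3, the Th2 lineage factor, rose by 0.34 ± 0.06 (SE, edgeR FDR 0.00282), with 168 to 171 CPM in WT against 198 to 230 CPM in Il6-/- recipients on Day 3 and 196 to 238 against 243 to 285 CPM on Day 5. Its groups did not overlap on either day, although it kept the FDR of each day in 9 of 20 alternatives. Il10, an anti-inflammatory cytokine at 0.0543 to 1.27 CPM, averaged 1.59 ± 0.41 (SE, edgeR FDR 0.017), from 2.16 on Day 3 and 1.01 on Day 5 (Day 5 FDR 0.295). The averaged FDR became 0.0519 without WT Day 3 replicate 2, 0.051 without WT Day 3 replicate 3 and 0.0582 without Il6-/- Day 3 replicate 1.

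Tfh genes were mostly lower, with 2 of 17 tested genes called lower, 9 lower and 0 higher by FDR, and a median of -0.25. For many of them the average summarized Day 3 more than Day 5, with medians of -0.492 and -0.0356, and 7 of 17 had an interaction FDR under 0.05 against 4.92% of all genes. Icos, the costimulatory receptor of Tfh cells, averaged -0.58 ± 0.06 (SE, edgeR FDR 7e-05) but stood at -0.12 on Day 5. Of 13 tested genes of regulatory T cells, 2 were called higher, Nrp1 and Il2ra, and 1 lower. The median was 0.0712 and ranged from -0.0963 to 0.2265 over the alternatives.

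The lists of interferon-induced genes had medians of opposite sign. Of 34 tested genes that type I interferon induces, 9 were called lower and 0 higher, and 22 were lower and 0 higher by FDR, with a median of -0.621. The day medians were -0.942 on Day 3 and -0.249 on Day 5, and 2 of the 34 passed as lower on both days. Rtp4, at 34.9 to 45.7 CPM in WT and 9.18 to 14.2 CPM in Il6-/- recipients on Day 3 and 29.2 to 46.9 against 19 to 26 CPM on Day 5, fell by 1.21 ± 0.14 (SE, edgeR FDR 7.48e-05), and lost its Day 5 call in 8 of 12 omissions. Oas1a, an antiviral oligoadenylate synthetase, ranged from 9.79 to 13.9 against 4.55 to 5.25 CPM on Day 3 and from 16.2 to 22.1 against 9.67 to 13.7 CPM on Day 5, and fell by 0.956 ± 0.13 (SE, edgeR FDR 0.000326). Irf7, the amplifier of type I interferon responses, averaged -0.88 but went from -1.53 on Day 3 to -0.23 on Day 5 (interaction FDR 0.00134).

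Guanylate-binding proteins and immunity-related GTPases, which are induced above all by interferon gamma, showed the other sign. Of 15 tested, 0 were called, 7 were higher and 1 lower by FDR, 13 had positive values, and the median was 0.546. Gbp2 stood at 14.9, 13.3 and 15.1 CPM in WT and 22.4, 22.3 and 22.3 CPM in Il6-/- recipients on Day 3, and at 25.9, 26.7 and 27.4 against 36.4, 39.7 and 35.9 CPM on Day 5. The libraries were far apart relative to their spread, and Gbp2 rose by 0.56 ± 0.07 (SE, edgeR FDR 0.000132) and passed on both days in all 20 alternatives. Gbp6, Gbp5 and Iigp1 rose on average by 0.55, 0.80 and 0.85, with edgeR FDRs of 0.005 to 0.0057. None of these 3 passed on Day 5. Gbp6 had 0.56 on Day 3 and 0.53 on Day 5 (Day 5 FDR 0.0638). Iigp1 had 0.90 and 0.80 (Day 5 FDR 0.0749). Gbp5 had 1.30 and 0.295 (Day 5 FDR 0.523). With the replicate block Gbp6 and Iigp1 passed on both days.

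**Figure D4:**
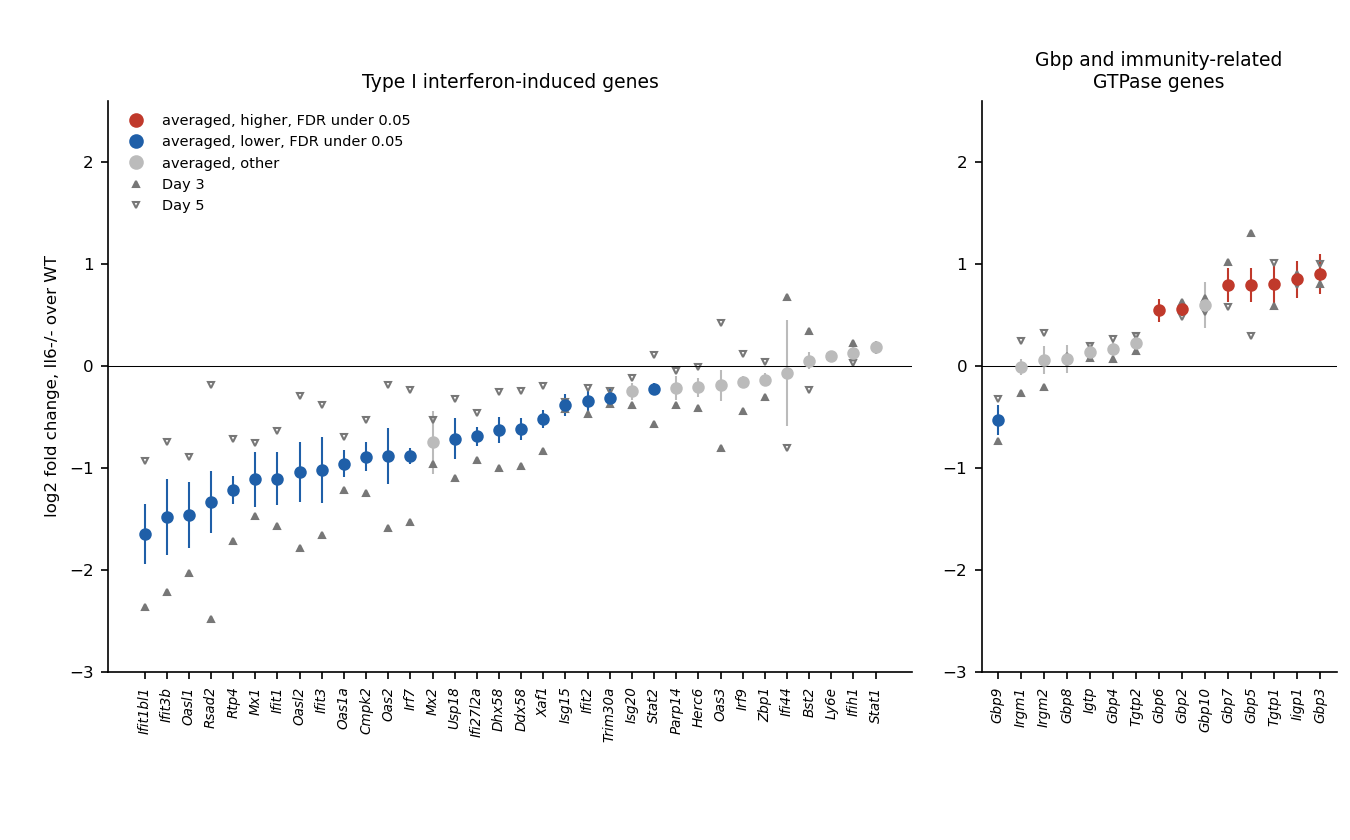
Averaged log2 fold change (y axis, circles, with SE bars) of 34 type I interferon-induced genes (left) and 15 Gbp and immunity-related GTPase genes (right), with Day 3 and Day 5 values as triangles. On the left 22 genes are lower and 0 higher at an averaged FDR under 0.05, and on the right 7 are higher and 1 lower.

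Lists of signaling and surface receptors held few called genes, except that of the IL-1 family, whose called genes were all lower. Of 8 tested IL-1 family receptors, 3 were called lower and 0 higher, against 0.943% and 0.789% of all genes tested. By FDR 5 were lower, and all 8 values were negative, with a median of -0.485. Besides Il1r1, the decoy receptor Il1r2 fell on average by 1.29 ± 0.27 (SE, edgeR FDR 0.0057) and the inhibitory member Sigirr by 0.38 ± 0.06 (SE, edgeR FDR 0.00091). Both passed on Day 3 and not on Day 5. Il1r2 had -2.16 and -0.415 on these days and Sigirr -0.61 and -0.14. The list's median went from -0.757 to -0.214. In the IL-17 receptor family, Il17rb rose while Il17re and Il17ra fell, the latter by 0.50 ± 0.06 (SE, edgeR FDR 0.00018), from -0.74 on Day 3 and -0.27 on Day 5 (Day 5 FDR 0.102, or 0.0242 with the replicate block). Of 14 tested TNF receptors, 4 were higher and 6 lower by FDR: Tnfrsf1b, the second TNF receptor, rose by 0.57 ± 0.07 (SE, edgeR FDR 0.000102) and passed on both days, while Tnfrsf26 and the costimulatory receptor Cd27 fell by 0.79 and 0.84. Tnfrsf26 passed on both days, and Cd27 stood at -1.19 on Day 3 and -0.48 on Day 5 (Day 5 FDR 0.0686, or 0.000664 with the block). The IL-10 receptor chain Il10ra rose by 0.65 ± 0.10 (SE, edgeR FDR 0.000861), with like values on both days.

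Within the B7 and CD28 family, Pdcd1lg2, a ligand of PD-1, rose by 0.55 ± 0.09 (SE, edgeR FDR 0.0011) beside Cd86, from 0.685 on Day 3 and 0.42 on Day 5 (Day 5 FDR 0.0697, or 0.0153 with the block), and the list's 11 tested members counted 3 higher and 3 lower. Integrin subunits counted 1 higher and 3 lower of 19, with Itgb1 at 0.41 and Itgb7 at -0.50. Itgb1 had like values on both days, 0.42 and 0.405, with FDRs of 0.03 and 0.0669. Itgb7 had -0.90 on Day 3 and -0.10 on Day 5, where its groups overlapped (Day 5 FDR 0.719). Of 11 JAK kinases and STAT factors, 0 were higher and 5 lower by FDR, each by little, such as -0.25 for Jak3, from -0.43 on Day 3 and -0.06 on Day 5. Inhibitory receptors counted 0 higher and 2 lower of 10, chemokine and egress receptors 2 higher and 4 lower of 18. Cytokine receptor subunits counted 6 higher and 4 lower of 20 and TNF superfamily ligands 3 higher and 1 lower of 12. MHC class I presentation genes counted 2 higher and 0 lower of 13, and the Schlafen family 1 higher and 2 lower of 6. Over all genes tested the shares were 7.62% higher and 7.13% lower. Slfn5 averaged -0.87 from -1.66 on Day 3 (edgeR FDR 7.74e-06) and -0.08 on Day 5 (edgeR FDR 0.784), where its groups overlapped.

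Factors that keep T cells quiescent or stem-like were lower as a group. Of 11 tested, 0 were called, 0 were higher and 8 lower by FDR, and the medians were -0.288 on average, -0.316 on Day 3 and -0.255 on Day 5. Satb1, a chromatin organizer, stood at 225, 236 and 244 CPM in WT and 98.3, 108 and 135 CPM in Il6-/- recipients on Day 3, and at 260, 218 and 187 against 151, 108 and 112 CPM on Day 5. The groups were apart on both days, and Satb1 fell by 0.945 ± 0.10 (SE, edgeR FDR 4.53e-05) and passed on both days in all 20 alternatives. Foxo1, which drives homing and survival genes of resting T cells, Tcf7, which encodes TCF1, and Ets1 fell on average by 0.32, 0.25 and 0.29. Foxo1 passed on both days but kept the FDR of each day in only 9 of 20 alternatives. Tcf7 stood at -0.32 on Day 3 and -0.18 on Day 5 (Day 5 FDR 0.144, or 0.0362 with the block) and Ets1 at -0.48 and -0.09 (Day 5 FDR 0.51). Effector transcription factors counted 5 higher and 4 lower of 14, and TGF-beta signaling components 0 higher and 4 lower of 14, with Smad3 at -0.63, from -0.69 and -0.56 (Day 5 FDR 0.0669, or 0.0104 with the block).

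Immediate early genes, which report recent receptor signaling, counted 1 higher and 4 lower of 16 tested, with a median of -0.298. Egr1 and Egr2, zinc finger factors downstream of the T-cell receptor, fell by 0.52 ± 0.08 (SE, edgeR FDR 0.001) and 0.54 ± 0.08 (SE, edgeR FDR 0.00085), and Zfp36, which destabilizes cytokine mRNAs, fell by 0.68 ± 0.12 (SE, edgeR FDR 0.0016). Egr1 passed on both days and kept this in 14 of 20 alternatives. Egr2 stood at -0.78 on Day 3 and -0.30 on Day 5 and Zfp36 at -0.94 and -0.41. Their Day 5 FDRs of 0.159 and 0.166 became 0.0237 and 0.0341 with the replicate block.

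Genes of growth were higher by amounts under 2-fold. Of 23 tested ribosome biogenesis genes, 17 were higher and 0 lower by FDR, with medians of 0.364 on average, 0.585 on Day 3 and 0.105 on Day 5. Nop2, a ribosomal RNA methyltransferase, rose by 0.53 ± 0.07 (SE, edgeR FDR 0.00043) and passed on both days, which held in 10 of 20 alternatives. Npm1, Nop16 and Gnl3 averaged 0.41, 0.41 and 0.49 with interaction FDRs under 0.05 and Day 5 values of 0.11, 0.03 and 0.04. Of 11 heat shock chaperones, 6 were higher and 0 lower by FDR and all 11 values were positive, with a median of 0.448. Hspd1, the mitochondrial chaperonin, and the cytosolic chaperone Hsp90ab1 rose by 0.53 ± 0.07 (SE, edgeR FDR 0.00037) and 0.41 ± 0.06 (SE, edgeR FDR 0.00046). Hsp90ab1 passed on both days, which held in 12 of 20 alternatives. Hspd1 had 0.76 on Day 3 and 0.30 on Day 5 (Day 5 FDR 0.118, or 0.00781 with the block). Glycolysis genes counted 5 higher and 0 lower of 19. Among them, Eno1, an enolase, was at 0.32 and past the threshold on both days, which held in 8 of 20 alternatives. Hk2, a hexokinase, was at 0.72 from 0.965 and 0.48 (Day 5 FDR 0.258).

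Cell-cycle genes were mostly positive but seldom past the threshold. Of 26 G1/S and replication genes, 24 were positive and 5 were higher and 0 lower by FDR, with Cdc6, Rfc3 and Pcna at 0.71, 0.40 and 0.29. For all 3 the larger value was that of Day 5. Cdc6 had 0.315 on Day 3 and 1.11 on Day 5 (Day 3 FDR 0.396). Rfc3 had 0.24 and 0.55 (Day 3 FDR 0.251), and Pcna 0.215 and 0.36 (Day 3 FDR 0.185). With the block Cdc6 and Pcna passed on both days. Of 22 G2/M genes, 21 were positive and 0 passed, and their median was -0.0622 on Day 3 and 0.703 on Day 5, so that the average joined unlike days. Cytosolic ribosomal proteins likewise had opposite medians, 0.249 on Day 3 and -0.251 on Day 5, with 4 higher and 0 lower of 83 on average and 54 with an interaction FDR under 0.05. Respiratory chain subunits counted 4 higher and 2 lower of 77 and cholesterol synthesis genes 1 higher and 0 lower of 22. Genes of ER stress and secretion counted 2 higher and 1 lower of 15. Over all genes tested the shares were 7.62% higher and 7.13% lower.

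In the BCL2 family, which controls apoptosis, 3 of 15 tested genes were higher and 1 lower by FDR. Bid, a pro-apoptotic BH3 protein whose exons overlap those of Bcl2l13 on the other strand, ranged from 41.5 to 47.1 CPM in WT and from 74 to 87.7 CPM in Il6-/- recipients on Day 3, and from 36.7 to 38.8 against 48.4 to 65.3 CPM on Day 5. It rose by 0.78 ± 0.08 (SE, edgeR FDR 3.28e-05) and passed on both days in all 20 alternatives, beside the anti-apoptotic Bcl2l1. Bik, another BH3 gene at group means of 0.477 to 1.72 CPM, averaged -1.38 ± 0.32 (SE, edgeR FDR 0.01), from -1.73 on Day 3 and -1.02 on Day 5 (Day 5 FDR 0.229). Circadian clock genes counted 2 higher and 2 lower of 13, with the core activator Arntl at -0.53 and the repressor Cry1 at -0.85. Arntl passed on both days, which held in 8 of 20 alternatives. Cry1 had -0.48 on Day 3 and -1.22 on Day 5 (Day 3 FDR 0.0654, or 0.0153 with the block).

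**Figure D5:**
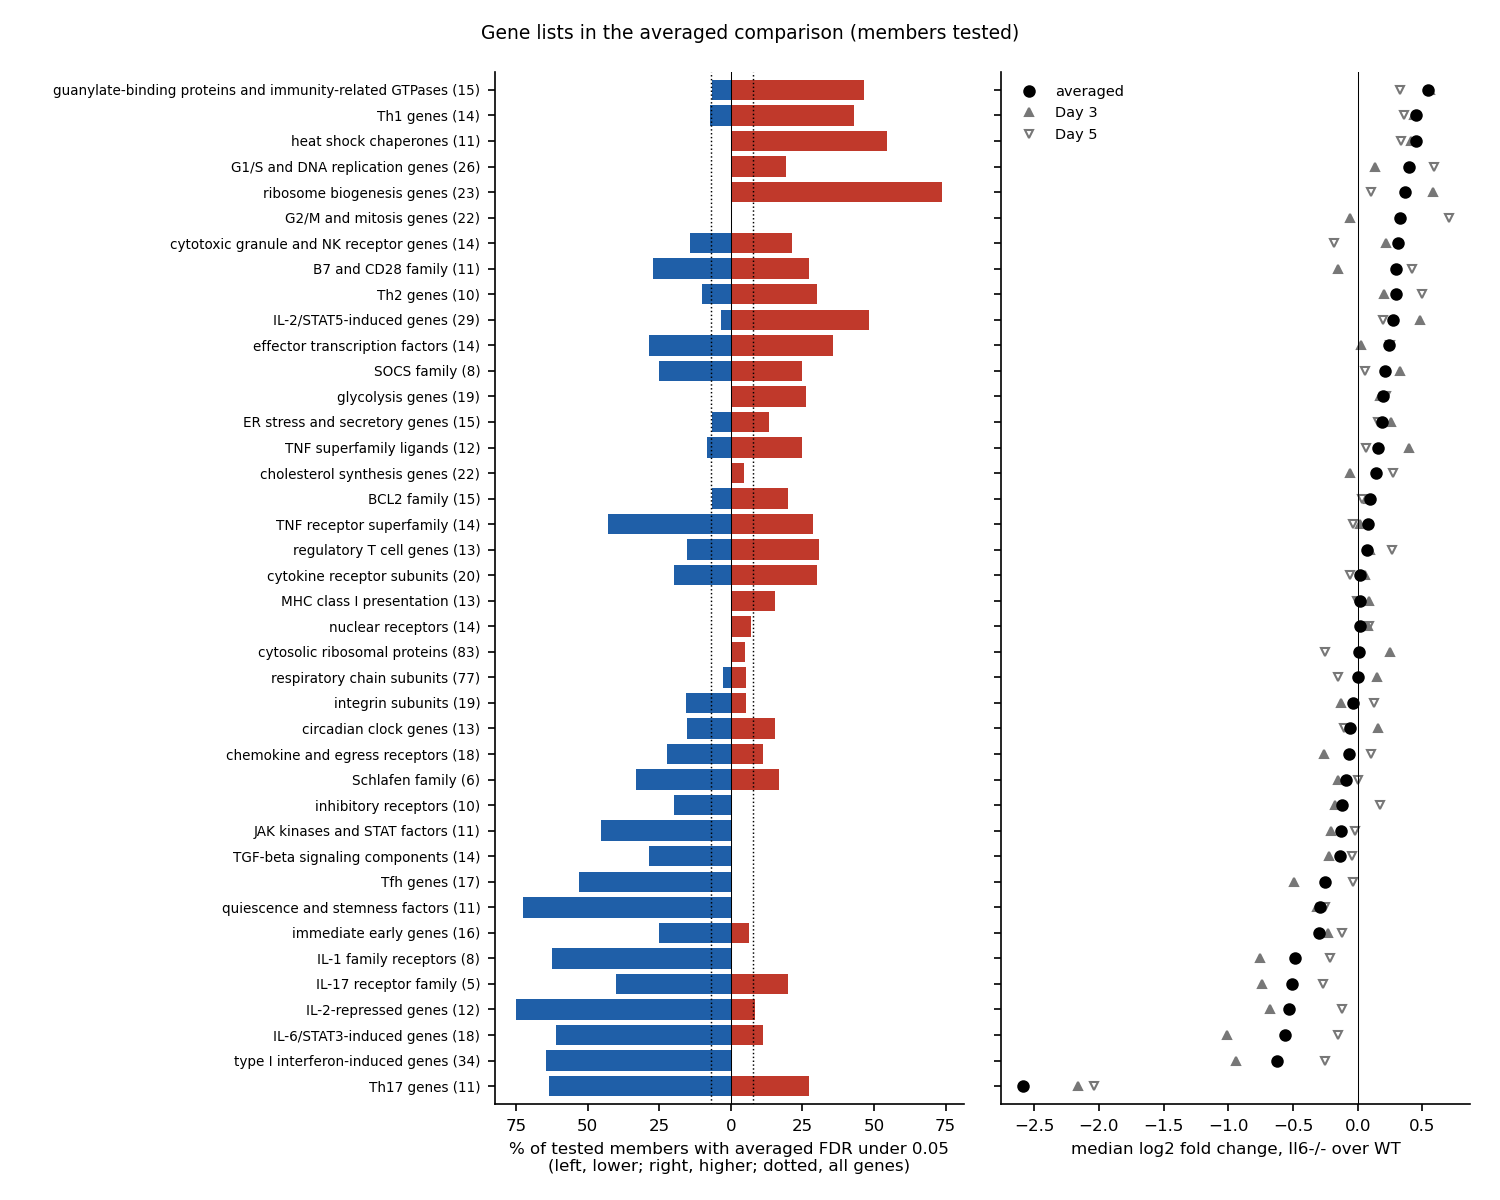
For 40 functional gene lists (number of tested members in parentheses), the left panel gives the percentage of members lower (blue) and higher (red) at an averaged FDR under 0.05, with dotted lines at 7.13% and 7.62% for all genes tested, and the right panel the median log2 fold change on average and on each day. Th17, type I interferon and IL-6/STAT3 lists lie lowest and the Gbp list highest, and the Day 3 and Day 5 medians of the G2/M and ribosomal protein lists lie on opposite sides of 0.

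An average can also hide unlike days. Of all genes tested, 668 (4.92%) had an interaction FDR under 0.05, and of the 235 called on average 25 did, 23 of them with the larger difference on Day 3. Wnt10a, a Wnt ligand, was at 0.234, 0.198 and 0.38 CPM in WT and 3.54, 4.61 and 4.74 CPM in Il6-/- recipients on Day 3, and at 14.7, 9.82 and 18.4 against 12.2, 9.49 and 12.3 CPM on Day 5. The groups were far apart on Day 3 and overlapped on Day 5, and its averaged log2 fold change of 1.82 ± 0.21 (SE, edgeR FDR 7.99e-05) came from 3.99 and -0.34. Itga7, a laminin-binding integrin, and Nav2, a neuron navigator gene, averaged -1.45 and -1.44 from -3.03 and 0.12 and from -2.60 and -0.27.

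The 6 called genes whose sign differed between the days, of which Cd36, Gm41450 and Usp35 were chosen after their values were seen, were Cd36, Wnt10a and Gm41450 among the higher and Tigit, Usp35 and Itga7 among the lower. Cd36, a scavenger receptor, had Day 3 and Day 5 values of 4.18 and -0.0132, Gm41450 of 3.06 and -0.0327 and Usp35 of -2.82 and 0.082, and their averaged FDRs of 0.0295, 0.0314 and 0.0335 went above 0.05 in 9, 8 and 7 of the 12 omissions, and to 0.0539 for Cd36 with the replicate block, and the FDR of Cd36 reached 0.339 without Il6-/- Day 5 replicate 3. Tigit, an inhibitory receptor, went from -2.80 to 0.39, and its averaged FDR of 0.0222 became 0.0536 without WT Day 5 replicate 2, 0.0663 without Il6-/- Day 3 replicate 1 and 0.0519 without Il6-/- Day 3 replicate 2. A further 20 genes passed an FDR under 0.05 on both days with opposite signs.

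The greatest fitted averages belonged to genes near the floor of counting. Il22 was the lowest, as given above. Sulf1, an extracellular sulfatase, was the highest, but had at most 2 counts in each WT library. It stood at 0.078, 0.0989 and 0.109 CPM in WT and 0.845, 1.33 and 0.758 CPM in Il6-/- recipients on Day 3, and at 0, 0 and 0 against 0.265, 0.0586 and 0 CPM on Day 5, where no fold is given. Its averaged FDR of 0.0145 became 0.121 without Il6-/- Day 5 replicate 1. Il17f, a Th17 cytokine named after its values were seen, stood at 0.975, 1.38 and 1.47 CPM against 0.211, 0.053 and 0.0948 CPM on Day 3 and at 0.407, 0.0519 and 0.235 against 0, 0.0586 and 0 CPM on Day 5, with an averaged FDR of 0.00399.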

How the data were processed

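Per the study's methods and the submitters' processing notes, the authors used Trim Galore 0.4.4 for trimming (a paired-end option is named, although reads were single-end), STAR 2.5.2a for alignment (build GRCm39) and HTSeq 0.6.1p1, without strand, for counting. The deposited values are raw read counts per gene symbol, 16125947 to 26111657 per library on genes (52.5% to 62.2% of the reads in the count files; rows that name no gene were left out). A deposited table of log2 CPM was not used here. Genes were kept by filterByExpr and scaled by TMM. In edgeR 4.0.16, a quasi-likelihood model of 12 libraries had 1 coefficient per group. The average of both days' genotype differences was tested, with each day and the interaction beside it, and p-values were adjusted by Benjamini-Hochberg over all 13570 genes (FDR). SE is the log2 fold change divided by the square root of F. CPM use TMM-scaled sizes. The recovery of averaged differences was checked on simulated independent libraries with equal differences on both days. Paired libraries and unlike days were not simulated.

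The members and the 40 functional and 8 marker lists were chosen with earlier results of these data known. Named genes are, per direction, the 14 with the smallest averaged p among those called, past each day's FDR and without overlap; the greatest average; up to 4 members per list by p; Il2ra, Il2rb, Cish and Socs3; and the 4 called genes with the smallest interaction p. Bcl3, Il17f, Iltifb, Ccr6, Ahr, Irf4, Batf, Cd36, Gm41450 and Usp35 were added after their values were seen. Alternatives varied scaling, filter, test, block and libraries. Positions are from GENCODE vM39 and promoters from RefSeq. Some results that the rule for named genes would give are not reported here.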

Additional observations from a re-analysis of the deposited data

Results flagged for a closer look

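For 29 of the named genes the Day 3 and Day 5 differences between the genotypes were unequal by the interaction test of edgeR (FDR under 0.05), so that the average stands for unlike days. Each value is the Day 3 minus the Day 5 log2 fold change. With the same sign on both days, it was -1.48 for Socs3, -1.52 for Tox2, -1.02 for Tnfrsf25, -1.3 for Irf7, -1.58 for Slfn5, -0.914 for Icos, -0.928 for S1pr1, -2.34 for Nav2, -0.797 for Itgb7, -0.389 for Ets1, -0.464 for Sigirr and -0.471 for Il17ra among lower genes. Among higher genes with the same sign, it was 1.36 for Cd86, 0.982 for Rxra, 2.28 for S1pr3, 0.676 for Lta, 0.598 for Npm1, 0.772 for Nop16, 0.902 for Gnl3, 0.776 for Hspe1 and 1.64 for Ctsw, and it was -0.851 for Il17rb, whose difference was the larger on Day 5. With opposite signs on the days, it was 4.32 for Wnt10a, -3.16 for Itga7, -3.19 for Tigit, 2.7 for Klrb1c, -1.55 for Cxcr5, 1.29 for Bcl2l11 and -0.671 for Stat2.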

How the results depend on the processing

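The averaged counts of 107 higher and 128 lower genes stayed within 1.5 times under every scaling, filter, test, block and omission tried, from 80 to 121 higher and 108 to 152 lower when a library was left out. Against a 2-fold null they became 7 and 8, and with no fold limit 1034 and 968. Of 59 higher and 84 lower both-day genes, leaving out a library left 24 to 139 and 41 to 113. The counts were 155 and 169 without a filter on low counts, 131 higher with DESeq2, 13 and 18 with the larger p of both days adjusted, 34 higher with each day fitted alone, and 14 and 19 at 2-fold on each day. For these shifts the cause was not tested beyond the stricter rule itself. Same-numbered WT and Il6-/- libraries correlated at 0.0325 to 0.0599 on Day 3, under 0.1, and at 0.129 to 0.243 on Day 5, over 0.1 for every pair. Each library correlated best with its own number. In replicates 1, 2 and 3, Trbc1 was at 290.4, 238.9 and 87.45 CPM in WT and 235.6, 192.6 and 78.86 CPM in Il6-/- recipients on Day 3. On Day 5 it was at 106.3, 5.559 and 543.5 against 96.28, 5.156 and 532.3 CPM. The numbers may thus pair the libraries of both days. With the replicate block the averaged counts were 122 and 146 and the both-day counts 227 and 189, and all 143 both-day genes were among them. No named gene changed the sign of its averaged value. Several list medians near 0 did change sign, among them those of regulatory T cell genes, cytokine receptor subunits, integrin subunits and circadian clock genes. Scaling moved the share of higher among called genes from 45.5% to 42.9% at the lowest and 47.3% at the highest. Levels under 0.117 to 0.176 CPM, 3 counts per library, cannot show a difference.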
